A study of Mus musculus with 4 samples.

Results

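Binding of NR1D1 was examined at 8 genes of ferroptosis and iron handling (Slc7a11, Gpx4, Aifm2, Acsl4, Tfrc, Ftl1, Fth1 and Ncoa4), of 21887 protein-coding genes. Every peak that overlapped the RefSeq span of one of these genes or the 10 kb on either side was taken. This gave 7 of the 7377 peaks of the PBS list and 4 of the 8816 peaks of the vasostatin-2 list. NR1D1 (REV-ERB alpha) is a nuclear receptor that represses transcription within the circadian clock. It was mapped by CUT&Tag, in which an antibody brings a transposase to a chromatin protein and the DNA around that protein is released for sequencing. The material was wild-type (WT) primary vascular smooth muscle cells from mouse aorta, kept for 24 h with the chromogranin A peptide vasostatin-2 or with phosphate-buffered saline (PBS), all labelled with the same batch. The labels give neither age, sex nor strain of the mice, nor how many were pooled. Each treatment has 1 NR1D1 library and 1 IgG library, of which the latter was not used here. With 1 NR1D1 library a treatment, no value has a replicate error, no treatment effect was tested, and every difference below is one between these 2 libraries. Peaks of a bound factor do not measure expression, so the smooth muscle identity could not be checked through marker genes.

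Ferroptosis is a form of cell death driven by iron and by the peroxidation of phospholipids. Cystine imported through SLC7A11 feeds the synthesis of glutathione, which GPX4 uses to reduce lipid hydroperoxides, and AIFM2 (also called FSP1) protects membranes in parallel by regenerating reduced coenzyme Q. ACSL4 supplies the polyunsaturated phospholipids that are oxidised. Iron enters through the transferrin receptor TFRC, is stored in ferritin, which is built from FTL1 and FTH1 chains, and is released when NCOA4 carries ferritin to the lysosome.

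NR1D1 peaks lay at or near annotated starts of Gpx4, Ftl1 and Ncoa4 in the PBS library and of Tfrc and Ncoa4 in the vasostatin-2 library. Only Slc7a11 had peaks that overlapped between the libraries, and these were the weakest by fragments. Acsl4 had no peak in either list. By gene, 6 of 8 had a PBS peak and 4 of 8 a vasostatin-2 peak. Whether this gap was kept depended on the rule. The PBS and vasostatin-2 counts were 6 and 4 with 3 kb on each side, beside 5288 and 4874 of all 21887 protein-coding genes. With 25 kb they were 7 and 5, beside 8460 and 8347 of all. With at least 8 fragments, a setting chosen after seeing the data, they were 5 and 2, beside 4299 and 3511. With no flank they were 3 and 3, beside 4102 and 3799. With a -log10 q of at least 5 they were 1 and 1, beside 3038 and 2103. A fold at or above the median of each list gave 1 and 2, beside 4001 and 3606. In the main setting both lists had a peak in 3 genes (Slc7a11, Ftl1 and Ncoa4). The PBS list alone had one in 3 (Gpx4, Aifm2 and Fth1), and the vasostatin-2 list alone in 1 (Tfrc). Of all protein-coding genes 29.5% had a PBS peak in the same kind of window and 28.0% a vasostatin-2 peak. Both lists had one at 17.5% of them, the PBS list alone at 12.0% and the vasostatin-2 list alone at 10.5%. Among genes with a window of 20 to 50 kb, the size of the window of 6 of the 8 genes, the shares were 25.4% and 21.8%. Per length, the windows of the 8 genes, 450.6 kb together, held 1.55 PBS and 0.888 vasostatin-2 peaks per 100 kb, beside 0.43 and 0.451 over the windows of all protein-coding genes. These densities were not matched for window size, and the PBS peaks include the peak inside the neighbouring gene Bax described below. A promoter window runs from 250 bases before a RefSeq start to 50 bases from it on. For a peak on such a window, the counts were 3 of 8 genes for PBS and 2 of 8 for vasostatin-2. The vasostatin-2 count includes Ncoa4, where the overlap was 3 bp. The shares over all protein-coding genes with such a window were 13.4% and 8.42%. These 8 genes were chosen with earlier results of these data known, so the counts describe them and are not a test.

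**Figure D1:**
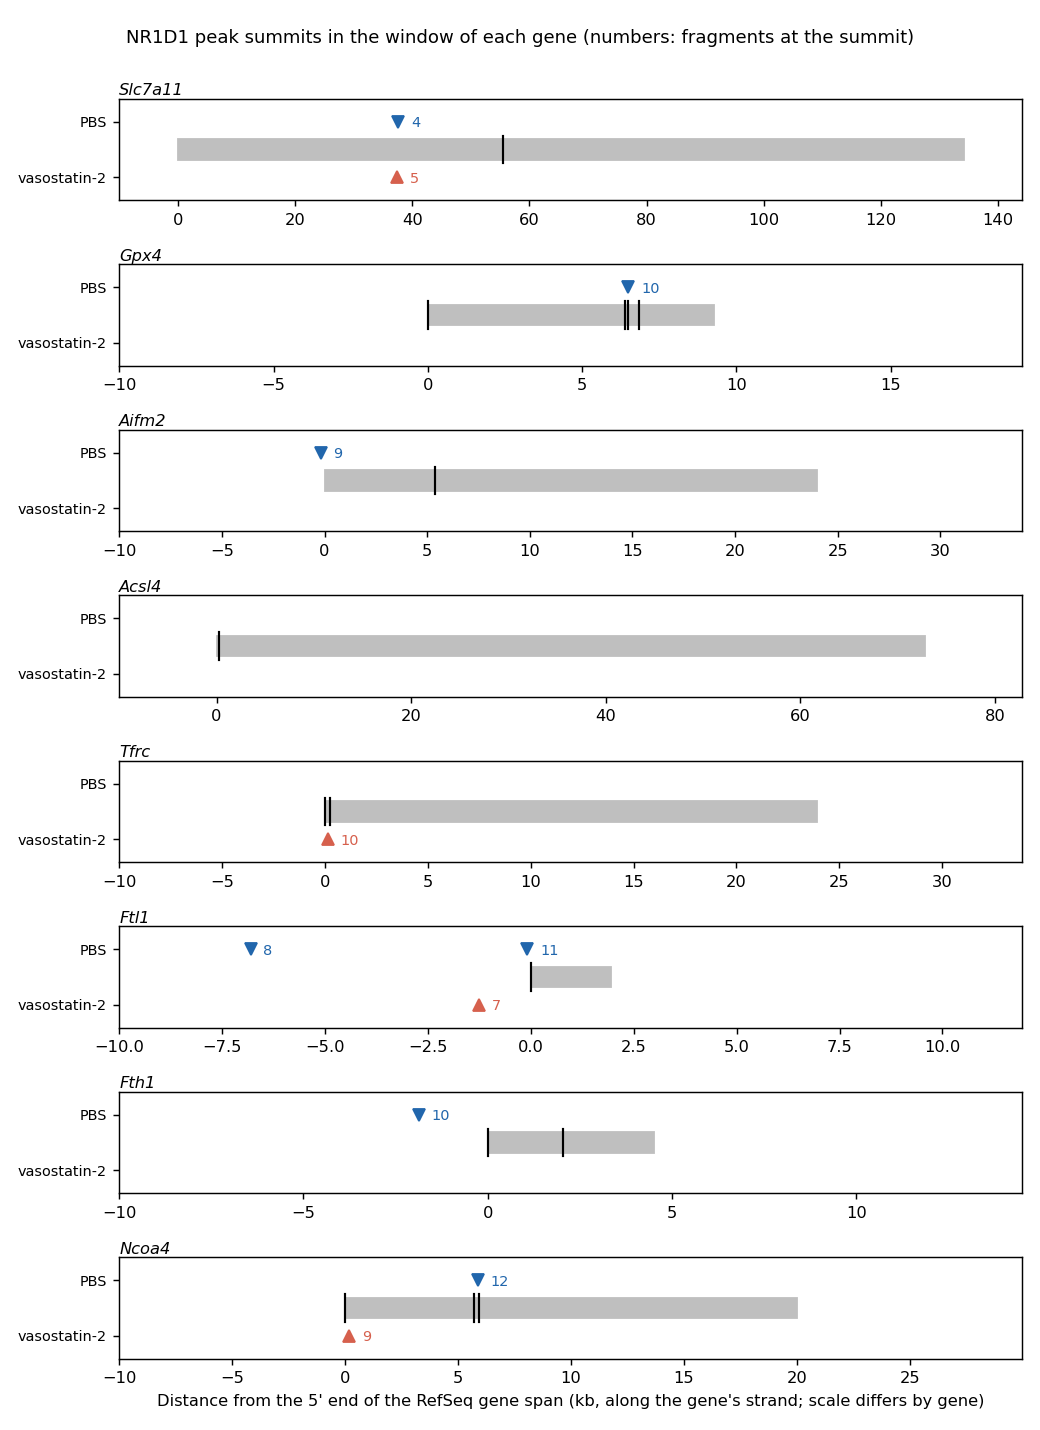
Summits of the PBS peaks (blue, pointing down) and vasostatin-2 peaks (red, pointing up) along each gene, in kb from the 5' end of its RefSeq span (grey bar), with 10 kb on each side and black ticks at the starts listed in RefSeq. The numbers are fragments at the summit; summits lie side by side at Slc7a11, apart at Ftl1 and Ncoa4, and Acsl4 has none.

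Of the promoters that a peak reached, the stretches under the summits at Ftl1, Tfrc and Ncoa4 are given here, and that of Aifm2 for its half-sites. They come from RefSeq on GRCm38.p6, the assembly of mm10, and run 5' to 3' on the strand of the gene. The windows of Gpx4, where the summit lay past the start, and of the upstream start of Ncoa4, which the vasostatin-2 peak reached by 3 bp, are not printed. The printed stretches of Tfrc, Ncoa4 and Aifm2 stop at the base before a listed start. That of Ftl1 stops at the edge of the peak, with its last base 18 bp upstream of the start. All 8 genes had at least 1 promoter window in the RefSeq table, 15 in all, which does not list every start. In Ftl1 (chr7:45459904-45460136, minus strand, PBS peak) and Tfrc (chr16:32608930-32609121, plus strand, vasostatin-2 peak) the capitals mark the summit and 5 bases on each side. In Ncoa4 (chr14:32165539-32165788, plus strand, PBS peak) they mark TGACCTGGC, which holds the half-site AGGTCA of nuclear receptors on the opposite strand. In Aifm2 (chr10:61720399-61720648, plus strand, no peak) they mark AGGTCA and its longer form TAGGTCA.
Ftl1: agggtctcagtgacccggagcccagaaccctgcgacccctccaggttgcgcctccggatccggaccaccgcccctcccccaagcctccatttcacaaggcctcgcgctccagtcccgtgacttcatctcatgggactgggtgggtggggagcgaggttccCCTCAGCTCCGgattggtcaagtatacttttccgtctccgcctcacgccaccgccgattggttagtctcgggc
Tfrc: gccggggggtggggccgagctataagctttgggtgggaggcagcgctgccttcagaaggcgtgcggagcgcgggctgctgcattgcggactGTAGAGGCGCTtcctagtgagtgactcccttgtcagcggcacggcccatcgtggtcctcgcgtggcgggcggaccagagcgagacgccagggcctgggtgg
Ncoa4: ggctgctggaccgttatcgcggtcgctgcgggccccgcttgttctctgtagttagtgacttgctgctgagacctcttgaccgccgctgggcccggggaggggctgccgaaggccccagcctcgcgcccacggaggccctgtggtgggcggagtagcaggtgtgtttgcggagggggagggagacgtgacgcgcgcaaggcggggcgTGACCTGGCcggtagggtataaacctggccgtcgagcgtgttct
Aifm2: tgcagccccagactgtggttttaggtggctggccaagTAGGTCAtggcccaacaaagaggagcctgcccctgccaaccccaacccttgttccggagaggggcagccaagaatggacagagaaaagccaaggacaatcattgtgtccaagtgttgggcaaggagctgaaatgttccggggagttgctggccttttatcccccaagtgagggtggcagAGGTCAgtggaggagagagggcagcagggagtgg

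Among the genes of lipid peroxide defence, Slc7a11 had a weak peak in each library, and these overlapped only in part. Slc7a11 (gene ID 26570, minus strand) spans chr3:50364936-50499087. The PBS peak at chr3:50461346-50461644 held 4 fragments at its summit (95% Poisson interval 1.09 to 10.2), with a deposited fold enrichment of 3.82 and a -log10 q of 1.65. The vasostatin-2 peak at chr3:50461581-50461803 held 5 fragments (1.62 to 11.7), with a fold of 4.34 and a -log10 q of 2.19. Both lay inside the gene span, 17868 and 18027 bp upstream of its listed start, and the table gives no exons. They shared 64 bp, 21.4% of the PBS peak and 28.7% of the vasostatin-2 peak, and the summits were 159 bp apart. Under a reciprocal overlap of 50% they were no longer a pair. After division by 1.32, the depth of the vasostatin-2 library relative to PBS, the vasostatin-2 summit held 3.80 fragments. The log2 ratio of vasostatin-2 over PBS was -0.07 with an exact 95% interval of -2.29 to 2.26, so a difference was not detectable at this depth. The smallest peaks of either list held 4 fragments, and 5.91% of the PBS list had a lower fold than the Slc7a11 peak.

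Gpx4 had a PBS peak at its start, and the nearest vasostatin-2 peak was 61691 bp away. The gene (gene ID 625249, plus strand) spans chr10:80047166-80056439 and has 4 listed starts. The PBS peak at chr10:80053562-80053792 overlapped the promoter windows of 3 of them. Its summit held 10 fragments (4.80 to 18.4) and lay 11 bp past the start at 80053659, with a fold of 4.13 and a -log10 q of 2.55. By fold this peak ranked above 13.1% of the PBS list. Its background was 1.66 fragments, against a floor of 0.31 in that library. AGGTCA was present 1 time in the Gpx4 windows, on the opposite strand 68 bp before the start at 80054011 and outside the peak.

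At Aifm2, too, only PBS had a peak, just outside the gene. Its span is chr10:61715263-61739260 (gene ID 71361, plus strand). The PBS peak at chr10:61715012-61715208 ended 55 bp before the span, and its summit with 9 fragments (4.12 to 17.1) lay 181 bp upstream of the 5' end of the span. The fold was 4.72 and the -log10 q 3.07. The start listed in RefSeq at 61720649 is 5567 bp downstream of that summit. The promoter printed above belongs to this listed start: it held TAGGTCA 213 bp and a further AGGTCA 34 bp before it, and neither lay under a peak. The nearest vasostatin-2 peak was 44694 bp from the PBS peak.

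Acsl4, the lipid substrate gene, had no peak in either list. It spans chrX:142317993-142390802 (gene ID 50790, minus strand). The nearest PBS peak was 1110649 bp away, with 8 fragments, and the nearest vasostatin-2 peak 209553 bp, with 4. Of all protein-coding genes 60.0% had a peak in neither list.

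For iron uptake, Tfrc had a peak at its start with vasostatin-2 and none with PBS. It spans chr16:32608896-32632794 (gene ID 22042, plus strand), with listed starts at 32608896 and 32609122. The vasostatin-2 peak at chr16:32608930-32609215 covered 242 bp of the promoter window of the downstream start. Its summit held 10 fragments (4.80 to 18.4), or 7.60 per unit of PBS depth, and lay 96 bp upstream of that start. With a fold of 7.15 and a -log10 q of 6.55 it ranked above 87.0% of the vasostatin-2 list by fold. The background was 0.54 fragments. The PBS list had no peak within 36345 bp of it. Past the far end of the gene, 12766 bp away and outside the window, both lists had overlapping peaks with 9 and 7 fragments. Farther out, 24963 bp from the gene, a PBS peak with 19 fragments and a fold of 7.67 overlapped no vasostatin-2 peak. The nearest of those was 11896 bp from it.

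Ftl1, which encodes the ferritin light chain, had peaks upstream of its start in both lists, but at different places. It spans chr7:45457944-45459886 (gene ID 14325, minus strand). The PBS peak at chr7:45459904-45460215 had its summit 85 bp upstream of the start, with 11 fragments (5.49 to 19.7), a fold of 4.02 and a -log10 q of 2.60. It ranked above 11.8% of the PBS list by fold, and its background of 1.99 fragments was the highest of the 11 peaks. The vasostatin-2 peak at chr7:45460999-45461187 had its summit 1256 bp upstream, with 7 fragments (2.81 to 14.4), or 5.32 per unit of PBS depth. Its fold of 3.42 exceeded that of 0.147% of the vasostatin-2 list, and its -log10 q of 1.31 was at the low end of that list. A gap of 784 bp separated these peaks. Of vasostatin-2 peaks with 6 to 8 fragments 22.7% overlapped a PBS peak. A further PBS peak in the Ftl1 window, at chr7:45466549-45466846 with 8 fragments (3.45 to 15.8) and a fold of 5.13, had its summit inside the neighbouring gene Bax, 203 bp from a start of Bax and 6809 bp from that of Ftl1.

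Fth1, which encodes the ferritin heavy chain, had a PBS peak upstream of the gene and none in the vasostatin-2 list within the window. It spans chr19:9980600-9985111 (gene ID 14319, plus strand). The PBS peak at chr19:9978563-9978805 had a summit of 10 fragments (4.80 to 18.4) that lay 1878 bp upstream of the first listed start, with a fold of 5.01 and a -log10 q of 3.67. A stronger peak lay just outside the window: a vasostatin-2 peak at chr19:9996360-9996681, 11249 bp from the span of Fth1, with 27 fragments, or 20.5 per unit of PBS depth, and a fold of 10.04. It was 322 bp wide, overlapped no PBS peak, and the nearest one, the Fth1 peak, was 17555 bp away. Of vasostatin-2 peaks with 21 to 49 fragments 90.6% (95% Wilson interval 85.9 to 93.8) overlapped a PBS peak. The peak farthest from its gene inside the window was the one in Bax, 6663 bp from the span of Ftl1.

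Ncoa4, the ferritin cargo receptor gene, had its peaks at or near different starts in the 2 lists. It spans chr14:32159879-32179855 (gene ID 27057, plus strand), with listed starts at 32159887, 32165586 and 32165789. The PBS peak at chr14:32165411-32165837, 427 bp wide, covered both downstream starts. Its summit held 12 fragments (6.20 to 21.0), the most among the 11 peaks, and lay 24 bp upstream of the start at 32165789. The fold was 6.84 and the -log10 q 6.70, above 77.9% of the PBS list by fold. The vasostatin-2 peak at chr14:32159934-32160186 began 47 bp past the upstream start and reached its promoter window by 3 bp. Its summit lay 162 bp past that start and held 9 fragments (4.12 to 17.1), or 6.84 per unit of PBS depth. Its fold was 5.84 and its -log10 q 4.44, above 70.5% of the vasostatin-2 list by fold. The summits were 5716 bp apart. The half-site AGGTCA in the printed Ncoa4 stretch lay at chr14:32165745-32165750, inside the PBS peak and 44 bp before the start, and it overlapped a match to TGACNNNGC, the core of the antioxidant response element, at the same first base.

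**Figure D2:**
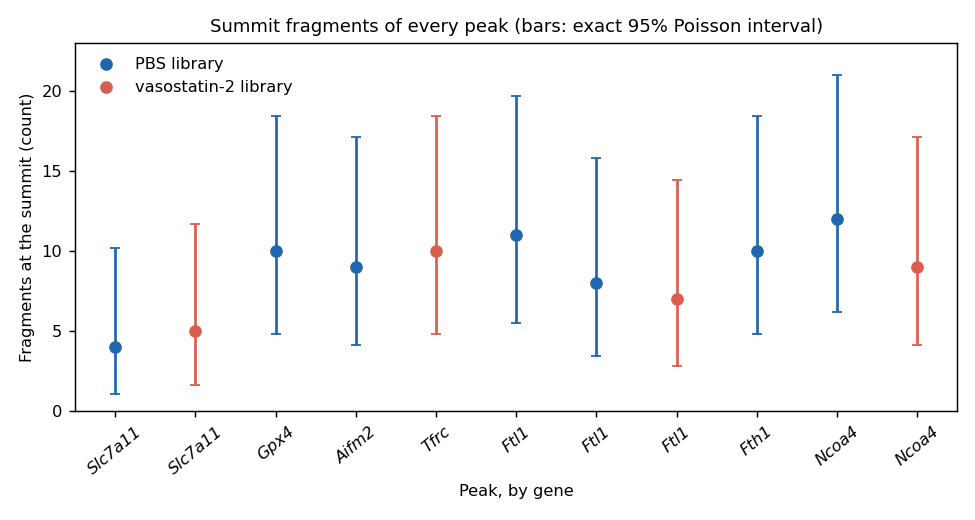
Fragments at the summit of each of the 11 peaks, by gene (blue PBS, red vasostatin-2, not scaled for depth), with exact 95% Poisson intervals for counting error. The peaks run from 4 fragments at Slc7a11 to 12 at Ncoa4, and all intervals overlap.

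Motifs were searched on both strands in the 15 promoter windows. AGGTCA was in 3 of the 15 windows, of Aifm2, Gpx4 and Ncoa4, and in 16.3% of all 32851 promoters of the table. TAGGTCA was in 1, of Aifm2, and in 2.61% of all promoters. The RevDR2 motif, in which AGGTCA is repeated with 2 free bases between the copies and which REV-ERB dimers bind, was in 0 and in 0.00913% of all. TGACNNNGC was in 1, of Ncoa4, and in 12.4% of all. The E-box CACGTG was in 0 and in 7.15% of all. TAGGTCA contains AGGTCA, so these counts are not separate, and several windows of a gene overlap each other. The printed stretches had a GC content of 64.4% at Ftl1, 69.3% at Tfrc, 68.4% at Ncoa4 and 57.6% at Aifm2, where the median over all promoters was 52.4% before the start.

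The absence of a counterpart has to be read against the number of fragments. Of all PBS peaks, between genes included, with 9 to 11 fragments, as at Gpx4 and Fth1, 44.0% (95% Wilson interval 41.4 to 46.6) had a vasostatin-2 counterpart. For 8 to 10 fragments, as at Aifm2, the share was 37.4%, for 10 to 12, as at the start of Ftl1, 49.1%, and for 11 to 13, as at Ncoa4, 53.4%. Of the vasostatin-2 peaks with 9 to 11 fragments, as at Tfrc, 45.0% (42.6 to 47.5) overlapped a PBS peak, and for 8 to 10, as at Ncoa4, 37.2%. For PBS peaks with 4 to 5 fragments, as at Slc7a11, the share was 7.94%, and for vasostatin-2 peaks with 4 to 6, as at Slc7a11, 8.58%. A peak list names called peaks only, so a gene without a peak is not shown to be free of NR1D1.

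**Figure D3:**
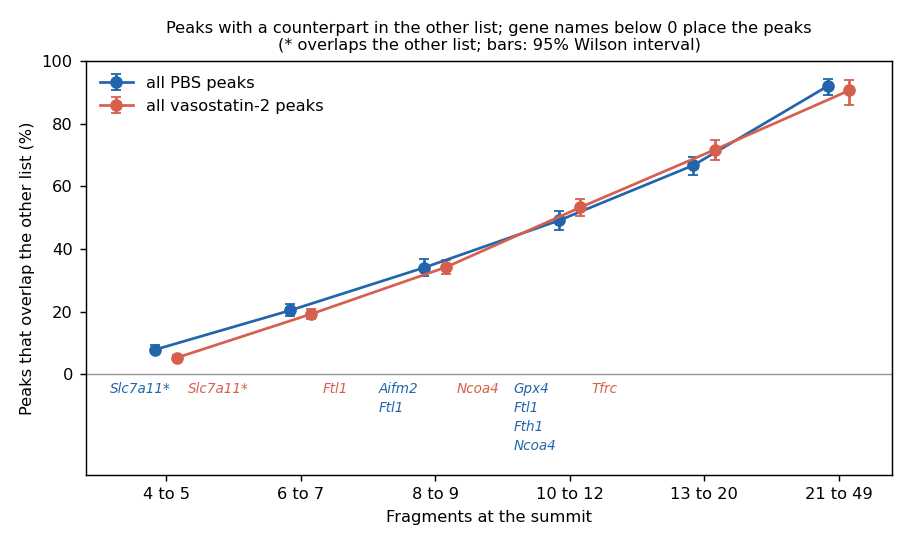
Share of peaks that overlap the other list (percent, y axis, with 95% Wilson intervals) by fragments at the summit (x axis), for the PBS list (blue) and the vasostatin-2 list (red). Peaks with more than 49 fragments are not shown. Gene names under the zero line place the 11 peaks in their class; only Slc7a11 (*) overlaps the other list, in the class of 4 to 5 fragments where 7.94% and 5.35% do.

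In a separate list of 60 further genes of ferroptosis, glutathione and iron metabolism, which holds none of the 8, 26 had a PBS peak within the span or 10 kb of it, 26 a vasostatin-2 peak, and 18 of them both. This was 43.3% of the list in each library, beside 29.5% and 28.0% of all protein-coding genes. A promoter window was listed for 42 of these genes; 14 had a PBS peak on it and 11 a vasostatin-2 peak, or 33.3% and 26.2%, beside 13.4% and 8.42% of all protein-coding genes. The genes named here are those with the highest fold in either list, whichever was higher, so their order compares folds of 2 lists: Iscu, Aco1, Nfe2l2, Slc25a28, Pcbp2, Vdac2, Txnrd1 and Hfe. All but Hfe had peaks that overlapped between the lists. Genes of high fold were picked here, and sharing rose with the fragments of a peak over the classes from 4 to 49.

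Iscu, the scaffold on which iron-sulfur clusters are built, had a peak 1785 bp beyond its span with 53 PBS fragments and 42 with vasostatin-2. Aco1, which encodes the iron-responsive protein IRP1, had 16 and 7 fragments, with summits 69 and 182 bp from its start. Nfe2l2, which encodes the antioxidant regulator NRF2, had 20 and 9 fragments at its start. At Iscu, Aco1 and Nfe2l2 the deeper vasostatin-2 library held the smaller number, and so it did at Vdac2 and Txnrd1 below. The whole lists differed in this direction too, with a median of 8 fragments a peak for PBS and 7 for vasostatin-2. In all, 427 PBS and 213 vasostatin-2 peaks held 21 to 49 fragments. Slc25a28, a mitochondrial iron carrier, had 16 and 18 fragments, 573 and 474 bp from its start, but nearer to a start of BC037704 (276 and 177 bp). Pcbp2, an iron chaperone, had 13 and 15 fragments, 45 and 9 bp from its start, the PBS summit being 2 bp from a start of Gm36331. At Slc25a28 and Pcbp2 the vasostatin-2 number was the higher one before division by depth and, at 13.7 and 11.4, the lower one after it. Vdac2, a mitochondrial outer membrane channel, had 18 and 11 fragments, and Txnrd1, thioredoxin reductase, 18 and 12. The Txnrd1 summits lay 283 and 285 bp from a listed start of Txnrd1 and 85 and 87 bp from a start of Gm38560. Hfe, which encodes a regulator of iron uptake, had a vasostatin-2 peak of 14 fragments and 8.67-fold 2090 bp from its start and none in PBS. Ireb2, the other iron regulatory protein gene, had 6 fragments in PBS alone. The PBS peak in the window of Hmox1, which releases iron from haem, held 4 fragments but lay 8882 bp outside the gene and 19 bp from a start of Mcm5.

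**Figure D4:**
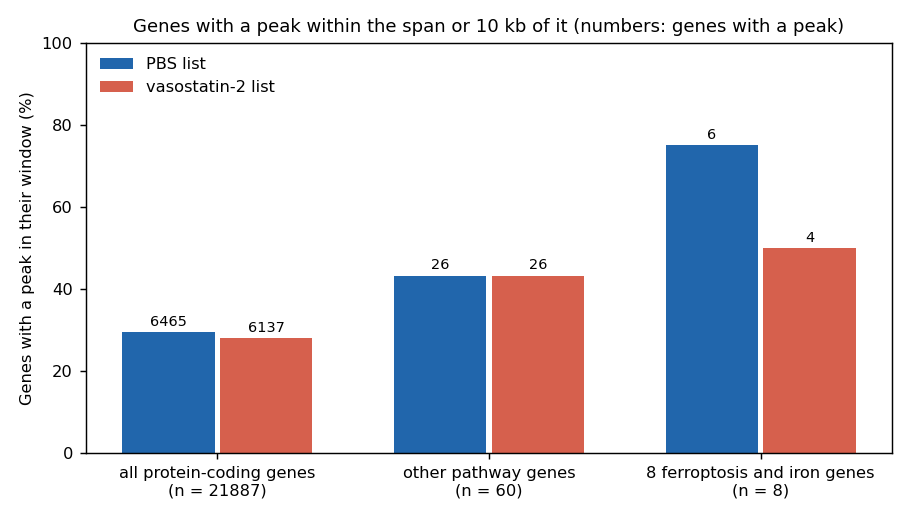
Percent of genes with a peak in the span or 10 kb of it (y axis, from 0) for all protein-coding genes, the separate list of 60 genes and the 8 genes, in the PBS (blue) and vasostatin-2 (red) list; the number of genes stands on each bar. The 8 genes reach 6 and 4, the separate list 26 and 26.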

How the data were processed

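CUT&Tag peak lists of NR1D1 from 2 libraries were used, with 1 library a treatment. Trimmomatic 0.39, BWA 0.7.17, MACS2 2.2.7.1 and build mm10 are named per the submitters' processing notes, without roles or settings. The files have no header; from their values the columns follow the order of the caller's narrowPeak format. The deposited fold enrichment (ratio of the summit to local background), the deposited -log10 p and -log10 q and the deposited score (not used further) are the authors' values, and rank peaks only within their own list. Values of -log10 q began at 1.32 for PBS and 1.31 for vasostatin-2.

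Fragments at each summit and the background were recovered from fold and -log10 p by the caller's Poisson formula, to within 0.0005, for 99.8% of peaks in each list and all 11 described. On 2939 simulated peaks made with the same formula 100% came out right, which checks the code and not the deposited values. The background floor (0.31 and 0.381 fragments) and its step, read as fragment lengths of 196 and 183 bp in an assumed window of 10000 bp, gave the relative depth of 1.32; total reads are not given in the sources used here. Whether the caller used an IgG control is not stated.

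Gene spans, starts and promoter sequences came from RefSeq on GRCm38.p6, without exons; where a gene is called upstream, its strand comes from the promoter table. Overlap means at least 1 bp (same result as bedtools 2.31.1 on 2000 simulated peaks). Python 3.11.15, pandas 2.3.3 and scipy were used. Intervals (95%) cover counting error only, since PCR copies are not told apart. The 8 genes and all lists were chosen with earlier results of these data known. The naming rule took all 8 genes and the 8 of the separate list with the highest fold; Ireb2 and Hmox1 were chosen after their values were seen, as were the promoter-window counts, the 20 to 50 kb genes and the setting of at least 8 fragments. Acta2 and Cnn1, smooth muscle markers, had 0 peaks in either list, and Myh11 and Tagln 1 in each.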

Additional observations from a re-analysis of the deposited data

How the results depend on the processing

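A stricter rule leaves fewer peaks and genes by construction, and the cause was not tested further. The counts over all 21887 protein-coding genes changed as well, from 6465 in PBS and 6137 in vasostatin-2 in the main setting. In the same order they were 4102 and 3799 with no flank, 5288 and 4874 with 3 kb on each side and 8460 and 8347 with 25 kb. A -log10 q of at least 5 gave 3038 and 2103. A fold at or above the median gave 4001 and 3606, and at least 8 fragments 4299 and 3511. With no flank 3 of the 8 genes had a PBS peak and 3 a vasostatin-2 peak, with 3 peaks in each list, and 16 genes of the separate list had one in PBS and 16 in vasostatin-2. With 25 kb on each side there were 11 PBS and 7 vasostatin-2 peaks, 5 genes with a peak in both lists, and 3 shared peaks in each. With a -log10 q of at least 5, 1 gene and 1 peak were left in PBS (Ncoa4) and 1 gene and 1 peak in vasostatin-2 (Tfrc), 0 genes in both lists and 0 shared peaks in either, and 13 and 10 genes of the separate list. With a fold at or above the median of each list, 1 gene and 1 peak were left in PBS and 2 genes and 2 peaks in vasostatin-2, 1 gene in both lists (Ncoa4), and 15 genes of the separate list in PBS. With at least 8 fragments, a setting chosen after seeing the data, 2 genes and 2 peaks were left in vasostatin-2, 1 gene in both lists, 0 shared peaks in either, and 14 genes of the separate list in vasostatin-2. A reciprocal overlap of 50% left 0 shared peaks in either list. For the counts of the 8 genes and the separate list and the ratio at Slc7a11, alternatives were compared with the main setting. Of these, 32 moved a count by more than 1.5 times. The other 25, among them the ratio at Slc7a11, which is not a count, were classed as not moved. Without division by depth the log2 ratio at Slc7a11 was 0.32, inside the interval of the scaled value. No paired analysis was possible because each treatment has 1 library. With 4 to 12 fragments a peak, depth limits every statement on a peak found in 1 list.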
